A study of Mus musculus with 2 samples.

Results

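The Slc25 genes encode the mitochondrial carriers, the proteins that move metabolites across the inner mitochondrial membrane. They were described here in mouse CD4 T cells grown under a pathogenic or a non-pathogenic Th17 protocol; Th17 cells are the IL-17-producing helper T cells. Every gene of the deposited count table whose symbol starts with Slc25a and a number was taken, which gave 47 of 22036 named genes. Each was sorted by the substrate its carrier is known to move. Of the 47, 38 had a mean of at least 1 CPM (counts per 1000000 counts on named genes, scaled by TMM) over both libraries and 33 had at least 5 CPM. A further 4 had counts but stayed under 1 CPM, and 5 had no count in either library.

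The inner mitochondrial membrane is closed to most charged metabolites, and each carrier opens it to a narrow set of them, usually by exchanging one substrate for another. The carriers share a fold built of repeated units. Among them are the carriers that exchange ADP for ATP and bring phosphate to the ATP synthase, those that export citrate and aspartate, and those that import cofactors that are made or activated outside the matrix. Activated T cells enlarge their mitochondria and draw on these exchanges for biosynthesis as well as for ATP.

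The CD4 T cells were taken from the lymph nodes and spleen of wild-type animals and were stimulated for 24 h with coated antibodies, 10 μg/mL against CD3 and 5 μg/mL against CD28. The culture labelled pathogenic Th17 was given 20 ng/mL IL-6 with 20 ng/mL activin A, which is a TGF-β family ligand. The culture labelled non-pathogenic Th17 was given 20 ng/mL IL-6 with 2 ng/mL TGFβ1, and antibodies against IFNγ and IL-4 were in both. Each condition is 1 mRNA library, and the named genes held 30877656 and 33470161 counts in the pathogenic and non-pathogenic one; no source used here gives the strain, age or number of mice. No difference below has a replicate check or a p-value. A range after a fold is a 95% Clopper-Pearson interval that covers counting error only and says how well each library was counted, not how cultures vary.

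The label of the cells was read against their markers. Cd4 stood at 223 CPM in pathogenic and 229.9 CPM in non-pathogenic cells, and Il17f, a cytokine gene of Th17 cells, at 394 and 588 CPM. The markers did not share a direction: of the 5 CD4 T cell and the 5 Th17 markers, 2 of each list had a ratio above 1 and 3 below. Il23r, the gene of an IL-23 receptor subunit, was 3.69-fold higher in pathogenic cells at 12.8 and 3.44 CPM, and Il17a 1.27-fold higher at 7.86 and 6.19 CPM. Rora, a transcription factor gene, was 1.90-fold higher in non-pathogenic cells at 89.0 and 169 CPM, and Cd3e, a T cell receptor complex gene, 1.51-fold higher at 167 and 252.0 CPM. The part of such differences in the carrier values was not tested. Markers of other cells were low, and no list of CD8 T cell, B cell, myeloid, NK cell or erythroid markers summed to more than 4.58 CPM in either library. Csf1r, Adgre1, Ncr1 and Klrb1c had no count in either library. Of the other myeloid markers, Cd68 had 110 counts in pathogenic and 123 in non-pathogenic cells, and Lyz2 had 7 and 6. Itgam had 0 and 24, so it was seen in the non-pathogenic library alone. In such bulk libraries, fewer cells of a type and less RNA per cell cannot be told apart.

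As a family the carriers stood close to parity between the 2 libraries. The 38 measured members had a median log2 ratio (pathogenic over non-pathogenic) of 0.054, against −0.0045 for all 10597 genes over 1 CPM, and the highest was 0.85. A ratio above 1 was seen for 23 members, or 60.5% against 49.4% of all genes, and below 1 for 15, or 39.5% against 50.6%. At 1.5-fold, 2 members were higher in the pathogenic library, against a background of 7.20% of all genes, and 1 was higher in the non-pathogenic library, against 5.76%. Those shares, 5.26% and 2.63% of the members, do not stand above the background. No member passed 2-fold, a size that 2.25% of all genes reached toward the pathogenic side and 1.95% toward the other. The counting interval lay above 1 for 14 members, or 36.8% against 33.0% of all genes, and below 1 for 7, or 18.4% against 34.0%. With halved counts these were 12 members, or 31.6% against 27.3%, and 5 members, or 13.2% against 27.7%. The members whose interval came to hold 1 with halved counts were Slc25a12 and Slc25a17 on the pathogenic side. On the non-pathogenic side they were Slc25a16 and Slc25a27. A ratio within 5 to 4 of parity was held by 28 members, or 73.7% against 68.3% of all genes.

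**Figure D1:**
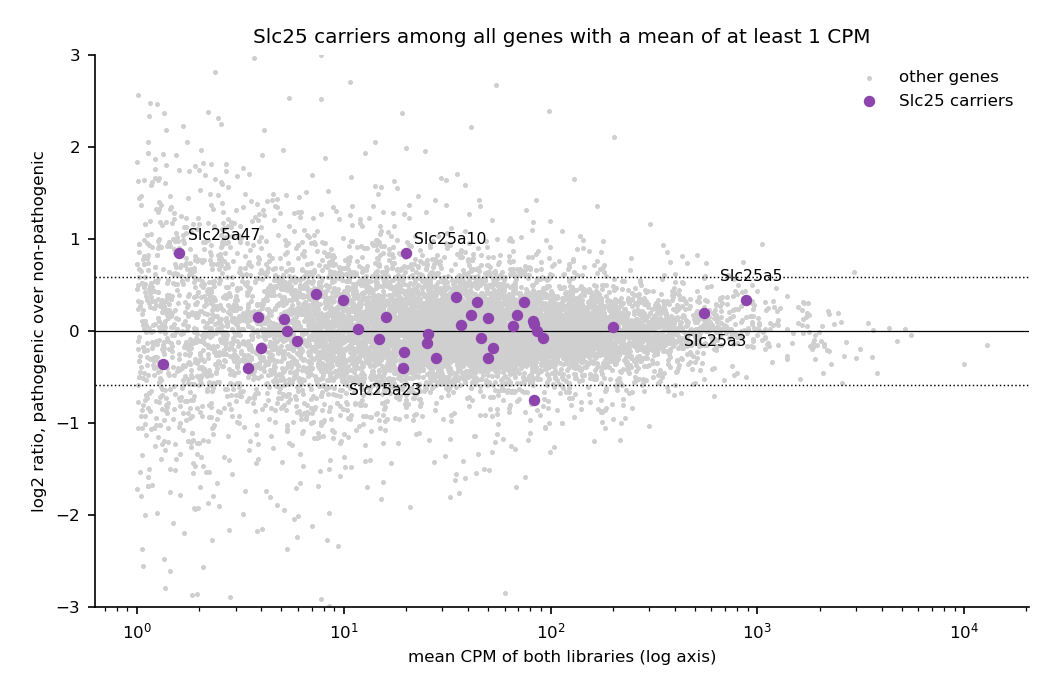
Each point is a gene with a mean of at least 1 CPM, with the mean CPM of both libraries on a log axis and the log2 ratio (pathogenic over non-pathogenic) on the vertical axis; purple points are the 38 Slc25 carriers and dotted lines mark 1.5-fold. Slc25a10 and Slc25a47 lie above the upper line, and 18 genes lie outside the drawn range.

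The summed counts of all 47 genes made up 0.301% of the pathogenic library's named counts (0.299% to 0.303%) and 0.271% of the other library's (0.269% to 0.273%), a 1.11-fold difference. That difference sat in the most abundant genes. Without Slc25a5 the sum was 1.04-fold higher in pathogenic cells (1.03 to 1.06). Without Slc25a3, Slc25a4 and Slc25a5 it was level, at 1222 CPM in pathogenic and 1218 CPM in non-pathogenic cells.

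Levels between genes were compared by FPKM, the authors' fragment counts relative to transcript length and depth. The family was steep, and Slc25a5 alone held 46.1% of the summed FPKM of the family in pathogenic and 41.6% in non-pathogenic cells. Slc25a3 followed with 21.3% and 21.4%, and Slc25a4 with 6.10% and 6.76%. Next came Slc25a39, a glutathione carrier gene, at 45.7 and 45.6 FPKM, and Slc25a17, the gene of a cofactor carrier of peroxisomes, at 43.7 and 41.5 FPKM.

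**Figure D2:**
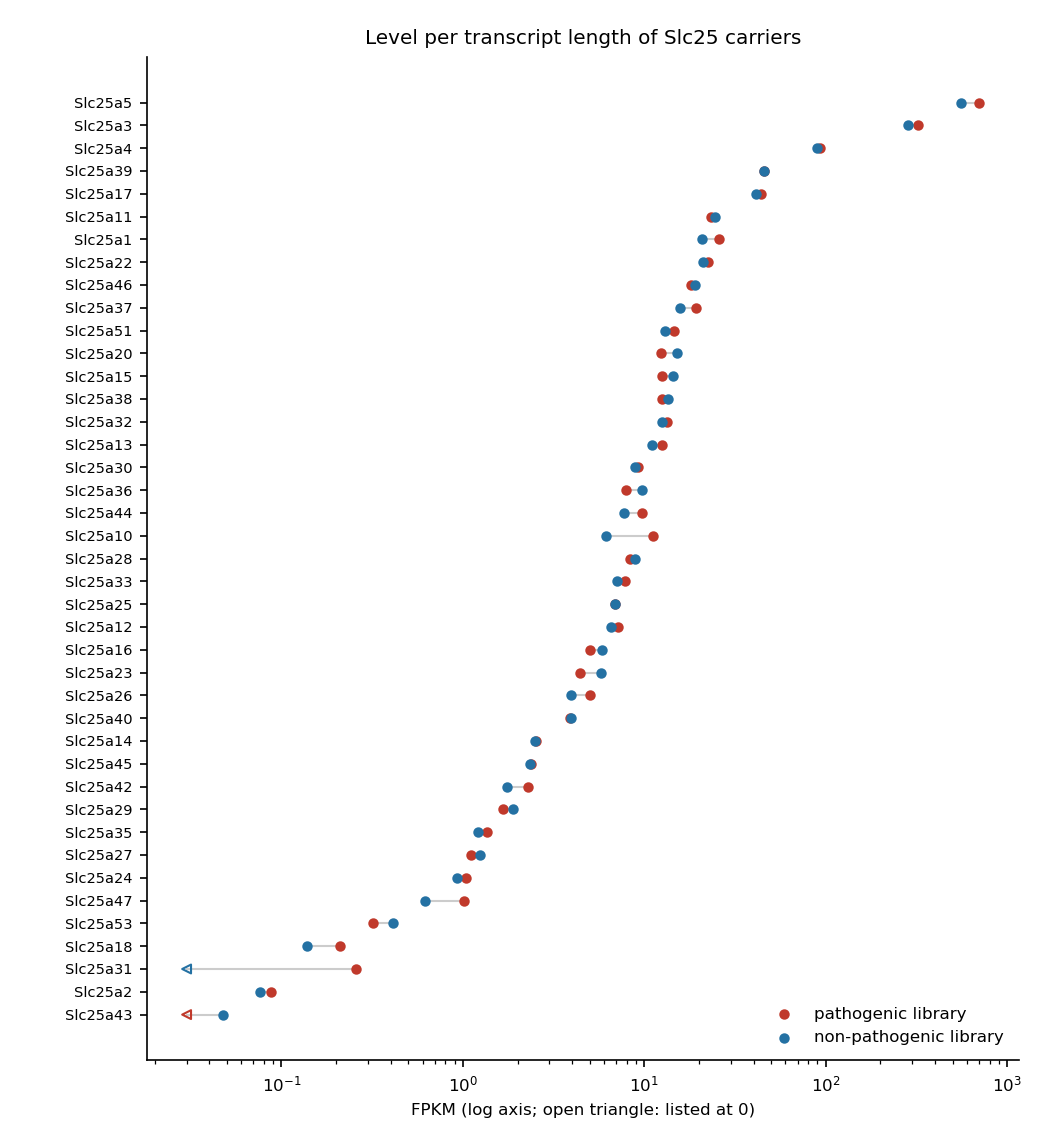
FPKM of 41 carriers with a count in at least 1 library, on a log axis, ordered by the mean of the pathogenic (red) and non-pathogenic (blue) library; an open triangle marks a library listed at 0. Slc25a5 leads at 699 and 553 FPKM, and among genes over 1 FPKM in either library the points of Slc25a10 and Slc25a47 are farthest apart.

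The ADP/ATP carriers and the phosphate carrier supply the ATP synthase with its substrates. Slc25a5 (ENSMUSG00000016319, chromosome X, 36795651 to 36798807 in mm10, by GENCODE M21), the ADP/ATP carrier gene of dividing cells, had 30564 counts in pathogenic and 26074 in non-pathogenic cells, or 988 and 780.2 CPM. It was 1.27-fold higher in pathogenic cells (1.246 to 1.288), and its log2 ratio of 0.34 became 0.22 once a trend for transcript length and GC was taken out. Slc25a4, the ADP/ATP carrier gene of heart and muscle, had 6285 and 6577 counts, or 203 and 197 CPM, and did not differ within counting error, at 1.03-fold (0.998 to 1.07). So the ratio of Slc25a5 to Slc25a4 by FPKM was 7.55 in pathogenic and 6.16 in non-pathogenic cells, and the ratio of their count ratios was 1.23 (1.18 to 1.28). Slc25a3 (chromosome 10, 91116574 to 91124059), the phosphate carrier gene, had 18265 and 17274 counts, or 591 and 517 CPM, and stood 1.14-fold higher in pathogenic cells (1.12 to 1.17). Its log2 ratio of 0.19 became 0.26 with the length and GC trend taken out, above the 0.22 of Slc25a5.

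Slc25a31, the ADP/ATP carrier gene of the male germ line, had 20 pathogenic counts and 0 non-pathogenic ones. With a floor of 3 counts for the latter library, the pathogenic value was 7.21 times as high as that floor. The counting interval starts lower, at 5.34-fold, and at 2.42-fold with halved counts. At a mean of 0.323 CPM Slc25a31 was far below its relatives.

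How far reads can be told apart bears on these values. The coding sequences of Slc25a5 and Slc25a4, of 894 bases each without the stop codon, were identical at 77.4% of positions, and the longest run they share was 20 bases. The stretch around that run is shown to make the difference visible, from coding base 307 to 356 of each gene in the GENCODE M21 transcripts. Capitals mark the bases at which the genes differ.
Slc25a5: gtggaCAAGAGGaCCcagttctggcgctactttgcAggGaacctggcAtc
Slc25a4: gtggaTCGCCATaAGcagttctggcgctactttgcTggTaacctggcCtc
Slc25a5 also has processed pseudogenes close to it, of which 7 matched its longest transcript at 91.6% to 98.3% identity over at least 200 bases. None of these has a row of its own among the genes used here, so how the authors' counting treated such reads is not known and the level of Slc25a5 is uncertain to that extent.

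ATP-Mg/phosphate carriers change the pool of adenine nucleotides in the matrix in response to calcium. Slc25a23 had 514 and 732 counts, or 16.6 CPM in pathogenic and 21.9 CPM in non-pathogenic cells, and stood 1.32-fold higher in non-pathogenic cells (1.18 to 1.48). Its relatives did not differ within counting error, with Slc25a25 at 25.3 and 25.8 CPM and Slc25a24 at 4.08 and 3.65 CPM. Of the exonic bases of Slc25a25, 4.82% overlap Naif1 on the opposite strand, which had 236 and 136 counts. Reads from that overlap cannot be told apart without strand. The fourth member, Slc25a41, had no count in either library. The ratio of count ratios between Slc25a23 and Slc25a25 was 0.774 (0.665 to 0.9004), so within this class the balance differed between libraries.

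The carriers of pyrimidine nucleotides, which serve RNA and DNA synthesis in the matrix, were split in the same way. Slc25a36 had 1393 and 1837 counts, or 45.1 CPM in pathogenic and 54.97 CPM in non-pathogenic cells, and stood 1.22-fold higher in the latter (1.14 to 1.31). Slc25a33 had 16.9 and 15.2 CPM, a difference within counting error at 1.12-fold (0.985 to 1.26) in the other direction, with 14.9% of its exonic bases over the antisense gene Gm13068. The ratio of their count ratios was 1.36 (1.18 to 1.57). Slc25a36 matches the pseudogene Gm13217 at 99.6% identity over 544 bases. That pseudogene has no row of its own among the genes used here, so how such reads were counted is not known.

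Carboxylate carriers exchange citrate, malate, succinate and oxoglutarate. Their most different member was Slc25a10 (ENSMUSG00000025792, chromosome 11, 120491840 to 120499187), the gene of the dicarboxylate carrier, which exchanges malate or succinate for phosphate or sulfate. It had 793 counts in pathogenic and 474 in non-pathogenic cells, or 25.6 and 14.2 CPM, and stood 1.81-fold higher in pathogenic cells (1.61 to 2.03). Of all genes over 1 CPM, 96.6% had a lower ratio. Of its exonic bases, 6.6% overlap the antisense gene Gm11788, whose reads cannot be told apart without strand. Slc25a1 (chromosome 16, 17925223 to 17928219), the citrate carrier gene, had 1512 and 1309 counts, or 48.9 and 39.2 CPM, and stood 1.248-fold higher in pathogenic cells (1.16 to 1.35). Slc25a1 had a log2 ratio of 0.32, or 0.16 after the same trend was taken out. Slc25a11, the oxoglutarate/malate carrier gene, did not differ within counting error, at 45.0 and 47.5 CPM, and Slc25a21 had no count. Of the exonic bases of Slc25a11, 8.92% overlap Rnf167 on the opposite strand, which had 734 and 922 counts. Not every such overlap of a carrier gene is named here. Summed over the class, the pathogenic library was 1.19-fold higher (1.13 to 1.24), and without Slc25a10 it was 1.08-fold higher (1.03 to 1.14).

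The promoters of the carboxylate members that were higher in the pathogenic library, and of Slc25a23 and the acylcarnitine carrier gene Slc25a20 that were higher in the non-pathogenic library, are printed to give the sequence beside the values. They come from RefSeq on GRCm38.p6, the assembly named mm10, and were cut to the bases before the gene's start. Capitals mark matches to the motifs that were searched on both strands, namely the E-box CACGTG, the NRF1 core GCATGCG, the ETS core CCGGAAG and the forkhead core TGTTTAC. The Slc25a10 stretch is chr11:120491587-120491836 on the plus strand, and that of Slc25a1 is chr16:17928220-17928469 on the minus strand. The Slc25a23 stretch is chr17:57059864-57060113 on the minus strand, and that of Slc25a20 is chr9:108661886-108662087 on the plus strand.
Slc25a10: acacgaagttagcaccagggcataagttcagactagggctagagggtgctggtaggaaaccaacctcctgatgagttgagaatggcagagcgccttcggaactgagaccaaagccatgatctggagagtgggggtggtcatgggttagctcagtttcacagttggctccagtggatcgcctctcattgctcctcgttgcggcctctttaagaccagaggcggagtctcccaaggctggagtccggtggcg
Slc25a1: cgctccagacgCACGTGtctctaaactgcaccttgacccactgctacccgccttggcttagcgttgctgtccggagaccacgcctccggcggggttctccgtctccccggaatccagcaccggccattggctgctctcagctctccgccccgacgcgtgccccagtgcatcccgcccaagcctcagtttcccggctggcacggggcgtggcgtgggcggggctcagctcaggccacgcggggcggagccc
Slc25a23: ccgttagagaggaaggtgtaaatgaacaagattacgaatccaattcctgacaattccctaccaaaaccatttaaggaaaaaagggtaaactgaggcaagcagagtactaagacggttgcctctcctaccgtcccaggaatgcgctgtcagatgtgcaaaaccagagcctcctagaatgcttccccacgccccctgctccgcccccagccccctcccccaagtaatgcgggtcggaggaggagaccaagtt
Slc25a20: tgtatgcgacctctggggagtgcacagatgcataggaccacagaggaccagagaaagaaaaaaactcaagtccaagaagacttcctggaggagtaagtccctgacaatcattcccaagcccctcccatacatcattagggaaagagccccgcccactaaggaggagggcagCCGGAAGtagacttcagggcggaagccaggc
None of these motifs stood in the Slc25a10 or Slc25a23 stretch. Slc25a1 held an E-box at position −239 and Slc25a20 an ETS core at position −79, both counted from the RefSeq start. For Slc25a20, GENCODE M21 starts the gene further upstream. The 48 bases next to the RefSeq start were therefore cut from its printed stretch. Of the 36 carriers with a promoter in the table, 6 held an E-box in the 250 bases before the start, or 16.7%, where 6.05% of all 27025 promoters did. The E-box carriers were Slc25a1, Slc25a13, Slc25a14, Slc25a31, Slc25a33 and Slc25a36, so members on both sides of parity held one. The ETS core was in 6 carrier promoters, or 16.7% against 7.05% of all, the NRF1 core in 2, or 5.56% against 3.07%, and the forkhead core in 0 against 3.09%. Carrier promoters were richer in G and C than the rest, with a median of 58.6% against 52%, and the part of base composition in these shares was not tested.

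Carriers of aspartate and glutamate were slightly higher in the pathogenic library. Slc25a12 and Slc25a13 encode the aspartate/glutamate carriers of the malate-aspartate shuttle, which brings reducing equivalents from the cytosol into the matrix. Slc25a13 was 1.13-fold higher in pathogenic cells (1.04 to 1.22) at 43.7 and 38.8 CPM. Slc25a12 was 1.103-fold higher (1.03 to 1.18) at 52.0 and 47.2 CPM. The balance of the pair was the same within counting error, at a ratio of count ratios of 0.98 (0.882 to 1.09). Slc25a22, a glutamate carrier gene, had 67.5 and 64.7 CPM, a difference within counting error, and its relative Slc25a18 had 15 and 10 counts.

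Genes for other amino acid carriers did not share a direction. Slc25a44, the branched-chain amino acid carrier gene, had 1218 and 1019 counts, or 39.4 CPM in pathogenic and 30.5 CPM in non-pathogenic cells, and stood 1.29-fold higher in pathogenic cells (1.19 to 1.41). Slc25a15, the ornithine carrier gene, was 1.14-fold higher in non-pathogenic cells (1.06 to 1.22) at 1522 and 1868 counts, or 49.2 and 55.9 CPM. Slc25a38, the glycine carrier gene that serves haem synthesis, had 24.2 and 26.5 CPM, and Slc25a29, a carrier gene for basic amino acids, 3.75 and 4.25 CPM, both within counting error. Slc25a2, the second ornithine carrier gene, had 5 and 4 counts. Summed over the class these genes were level, with a ratio of sums of 1.005-fold (0.96 to 1.05) toward the non-pathogenic library. The median log2 ratio of the 4 measured members was −0.16, with 1 ratio above 1 and 3 below.

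Cofactor carriers bring in molecules that enzymes of the matrix need, apart from the carrier of peroxisomes, Slc25a17, which is counted in this class. Of the 7 members 5 had a ratio above 1 and 2 below. Slc25a42, a coenzyme A carrier gene, was 1.32-fold higher in pathogenic cells (1.097 to 1.591) at 8.38 and 6.34 CPM. Slc25a26, the S-adenosylmethionine carrier gene, was 1.27-fold higher there (1.08 to 1.49) at 11.2 and 8.80 CPM, or 345 and 294 counts. Of its exonic bases, 3% overlap Lrig1 on the opposite strand, which had 5836 and 7767 counts. Without strand, reads from that overlap cannot be told apart. Slc25a51, the NAD carrier gene, was 1.13-fold higher (1.07 to 1.20) at 73.4 and 65.0 CPM. Slc25a32, which encodes a carrier of folate or FAD, was 1.08-fold higher (1.03 to 1.14), and Slc25a17, at 2639 and 2702 counts, was 1.06-fold higher with an interval that starts at 1.00. Slc25a16, a gene linked to coenzyme A import, was 1.17-fold higher in non-pathogenic cells (1.04 to 1.31) at 556 and 702 counts, or 17.98 and 21.01 CPM. Slc25a16 and Slc25a42 lay on opposite sides of parity, with a ratio of count ratios, Slc25a16 over Slc25a42, of 0.649 (0.521 to 0.807). Over the class the median log2 ratio was 0.12 and the log2 ratio of summed counts was −0.086, of the other sign.

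**Figure D3:**
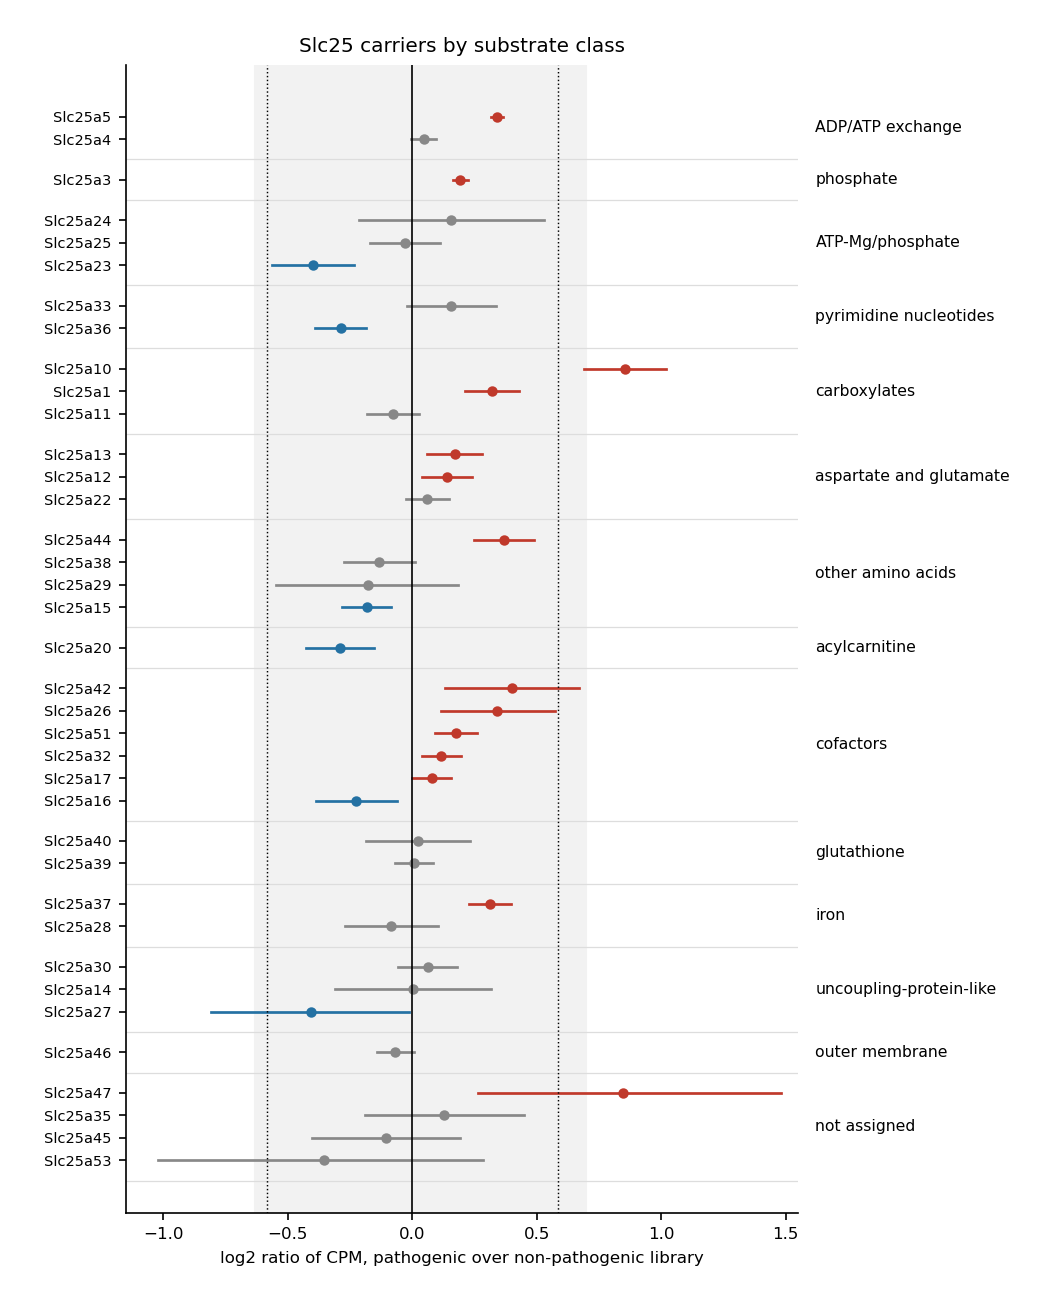
Log2 ratio of CPM (pathogenic over non-pathogenic) of 37 carriers over 1 CPM, grouped by substrate class, with bars for the 95% counting interval; red and blue mark intervals above and below 1, dotted lines 1.5-fold and the grey band the central 90% of all genes. Slc25a10 at 0.85 lies beyond the band, as does Slc25a47 with a wide bar.

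Slc25a20 (chromosome 9, 108662088 to 108684641) encodes the carnitine/acylcarnitine carrier, which takes fatty acids into the matrix for oxidation. It had 779 counts in pathogenic and 1030 in non-pathogenic cells, or 25.2 and 30.8 CPM, and stood 1.22-fold higher in non-pathogenic cells (1.11 to 1.35). A stretch of up to 366 bases in its longest transcript recurs at 96.5% to 98.9% identity in the transcripts of 18 other genes. Part of the Slc25a20 reads may therefore not be unique. Among those genes, Tnfrsf22, alike over 227 bases, had 793 counts in pathogenic and 1252 in non-pathogenic cells, and Tmem72 had 1 and 0. The part of shared reads in the Slc25a20 difference was not tested. The enzyme that feeds this carrier, carnitine palmitoyltransferase, differed more. Cpt1a had 20.6 CPM in pathogenic and 54.8 CPM in non-pathogenic cells, and stood 2.66-fold higher in the latter (2.43 to 2.92). Cpt2, which releases the fatty acid inside the matrix, had 10.7 and 11.6 CPM, a difference within counting error. Cpt1b, named after its value was seen because it is under 5 CPM, had 66 and 18 counts, and stood 3.80-fold higher in pathogenic cells (2.33 to 7.09).

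Glutathione carriers did not differ between the libraries within counting error. Slc25a39 had 2653 and 2855 counts, or 85.8 and 85.4 CPM, at 1.00-fold (0.952 to 1.06), and Slc25a40 had 11.9 and 11.7 CPM at 1.02-fold (0.88 to 1.18). After the length and GC trend was taken out, Slc25a39 had a log2 ratio of −0.16.

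Iron enters the matrix through the mitoferrins for haem and iron-sulfur cluster synthesis. Slc25a37 had 2540 and 2211 counts, or 82.1 CPM in pathogenic and 66.2 CPM in non-pathogenic cells, and stood 1.24-fold higher in pathogenic cells (1.17 to 1.32), while its relative Slc25a28 had 14.4 and 15.3 CPM, within counting error. The ratio of their count ratios was 1.32 (1.14 to 1.52). Slc25a37 shares 339 bases at full identity with Gm16867, a protein-coding gene with 487 counts in pathogenic and 332 in non-pathogenic cells, so reads from that stretch can belong to either. Of 8 measured genes of haem and iron-sulfur synthesis, 0 passed 1.5-fold, against 13.0% of all genes in either direction, a count too small to set the list apart, and their median log2 ratio was −0.038.

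Summed, the members related to the uncoupling proteins were near parity, at 1.01-fold (0.942 to 1.09) toward the pathogenic library. Slc25a30 had 37.6 and 36.1 CPM and Slc25a14 had 5.34 and 5.33 CPM, both within counting error. Slc25a27 was 1.32-fold higher in non-pathogenic cells by counts (1.01 to 1.75), on 92 and 132 counts. Its log2 ratio was −0.41 by counts and −0.16 by FPKM. The uncoupling protein gene Ucp2, a member of the same protein family under another symbol, was more abundant than any of these, at 456 CPM in pathogenic and 653 CPM in non-pathogenic cells. It was 1.43-fold higher in non-pathogenic cells (1.40 to 1.47). Ucp1 had no count and Ucp3 had 0 and 1.

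Slc25a46, whose product sits in the outer membrane and acts in fission rather than transport, had 89.7 and 94.1 CPM, within counting error. Of the 8 members with no substrate assigned here, 4 passed 1 CPM. Slc25a47 (chromosome 12, 108836046 to 108856815) was the second member past 1.5-fold in the pathogenic direction, at 64 and 38 counts and 1.80-fold (1.20 to 2.80). With counts halved, in case each sequenced fragment added 2, its interval starts at 1.00. Slc25a35, Slc25a45 and Slc25a53 had 167 and 165, 178 and 207, and 36 and 50 counts, all within counting error. Slc25a35 shares 31.3% of its exonic bases with Rangrf on the opposite strand, which had 644 and 683 counts, and no strand-marking step is described, so its reads are uncertain. Slc25a43 had 0 and 2 counts. The 5 carriers with no count were Slc25a21, Slc25a34, Slc25a41, Slc25a48 and Slc25a54, which at this depth allows a level of up to 0.097 CPM in pathogenic and 0.0898 CPM in non-pathogenic cells, the level of 3 counts.

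**Figure D4:**
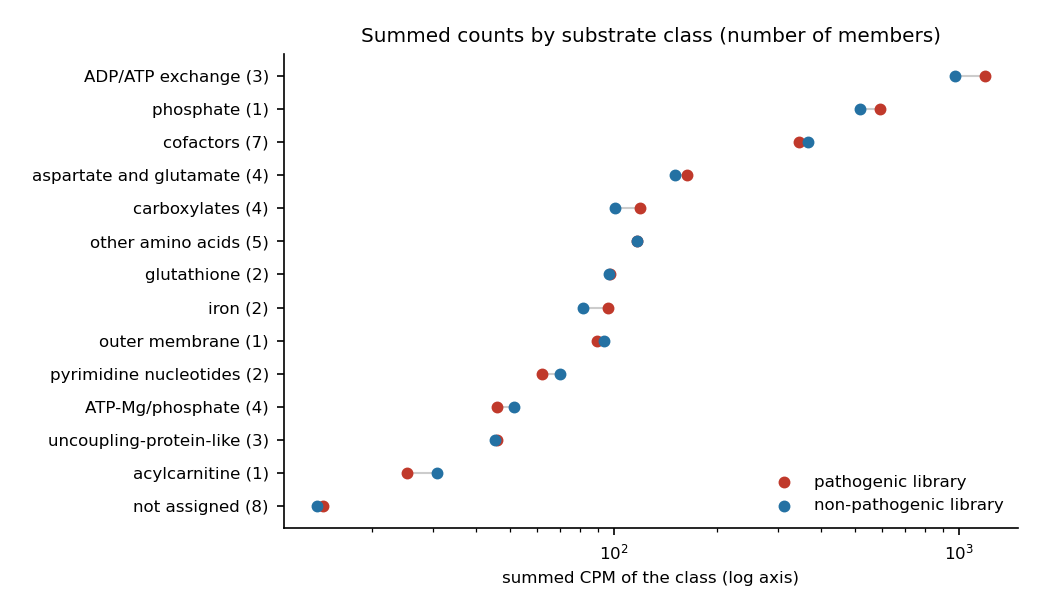
Summed CPM of each substrate class on a log axis, pathogenic library in red and non-pathogenic library in blue, with the number of members of the class in brackets. The ADP/ATP carriers lead at 1192 and 977 CPM, and the red and blue points change places between classes.

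Summed by class, ADP/ATP exchange was 1.22-fold higher in pathogenic cells (1.20 to 1.24), iron 1.185-fold (1.125 to 1.249) and aspartate and glutamate 1.08-fold (1.04 to 1.13). Higher in the non-pathogenic library were pyrimidine nucleotides, at 1.13-fold (1.07 to 1.20), ATP-Mg/phosphate, at 1.12-fold (1.04 to 1.20), and cofactors, at 1.06-fold (1.03 to 1.09).

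Genes that act beside the carriers were counted from lists of known roles. Of the 67 measured genes of these lists, 10 passed 1.5-fold in either direction, where 13.0% of all genes did. Carrier import, by the TOM complex and the TIM22 pathway that inserts carriers into the inner membrane, had 3 of 16 genes past 1.5-fold toward the pathogenic side, against 7.20% of all genes, and 0 past it on the other, against 5.76%, and a median log2 ratio of 0.15. These were Timm13, at 72.9 and 31.5 CPM and 2.32-fold (2.15 to 2.50), Tomm7, at 45.1 and 20.7 CPM and 2.18-fold (1.99 to 2.39), and Timm10, at 1.54-fold (1.40 to 1.70). Timm13 and Timm10 encode small chaperones of the intermembrane space. For Timm10, taking out the length and GC trend gave a log2 ratio of 0.25 in place of 0.62. Tomm70a, the receptor gene for carrier precursors, had 339 and 364 CPM, and Timm22, the channel gene, 28.8 and 24.4 CPM.

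Other transporters of the mitochondrial membranes, 23 genes, had a median log2 ratio of 0.034 with 3 past 1.5-fold in pathogenic cells, against 7.20% of all genes, and 1 in non-pathogenic cells, against 5.76%. Such small counts are near the background. Mpc2, a subunit gene of the mitochondrial pyruvate carrier, was 1.64-fold higher in pathogenic cells (1.47 to 1.83), at 26.1 and 15.95 CPM. Its partner Mpc1 had 26.2 and 25.4 CPM, within counting error. Sfxn3, a sideroflexin gene, was 1.64-fold higher in non-pathogenic cells (1.53 to 1.76), and Smdt1, a subunit gene of the calcium uniporter, 1.51-fold higher in pathogenic cells (1.39 to 1.64). With the length and GC trend taken out, Smdt1 had a log2 ratio of 0.24 in place of 0.59. Sfxn5, named after its value was seen, was 1.99-fold higher in pathogenic cells (1.40 to 2.90) on 91 and 49 counts.

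Enzymes of the malate-aspartate shuttle lay close to parity. Got1, Got2 and Mdh2 had log2 ratios of 0.13, 0.073 and 0.17, and Mdh1 had −0.16, so none passed 1.5-fold. The citrate export enzymes Cs and Acly had log2 ratios of 0.17 and 0.12. Among genes of mitochondrial one-carbon and glycine metabolism, Mthfd2, a folate-dependent enzyme gene, was 1.249-fold higher in pathogenic cells (1.20 to 1.298). Amt, at 27 and 47 counts and named after its value was seen, was the only gene of that list past 1.5-fold, with an interval from 0.983 to 2.69 toward the non-pathogenic library.

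**Figure D5:**
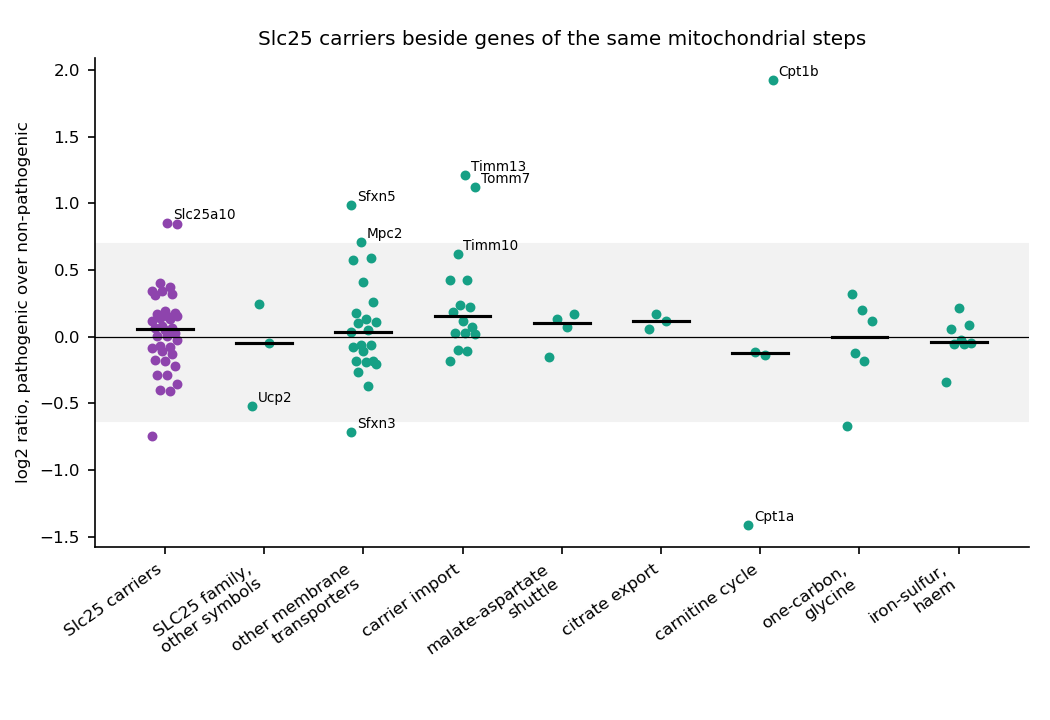
Log2 ratio of CPM (pathogenic over non-pathogenic) of the carriers (purple) and of genes of related mitochondrial steps (green) over 1 CPM, with a black line at each list's median and the grey band for the central 90% of all genes. Most points lie inside the band, and Cpt1a at −1.41, Timm13 at 1.21 and Tomm7 at 1.12 are among those outside it.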

How the data were processed

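Counts as whole numbers and FPKM, each with a column for either library, were deposited by the authors in separate files, per the file headers. Build mm10 is named in the submitters' processing notes. No source used here names the aligner, counter or annotation. Per the labels' protocols, mRNA was captured on oligo(dT) beads and amplified by PCR, and no molecular identifiers or strand step are described. Unnamed features, with 2.5% and 2.9% of pathogenic and non-pathogenic counts, were left out. CPM is the count per 1000000 counts of a library size scaled by TMM (edgeR 4.0.16, R 4.3.3), and log2 ratios used a prior count of 1 in proportion to library size. Intervals are exact Clopper-Pearson at 95%, from SciPy 1.17.1. Features with 2 counts outnumbered those with 1 by 3.88 and 4.57 times (pathogenic, non-pathogenic), so fragments may count more than once and intervals may be too narrow. Halved counts were therefore tried. With 1 library per condition no test was made. The calculation was tried on simulated counts that held counting error alone. That checks the code, and it covers neither fragments counted more than once nor the spread between cultures. Alternatives were DESeq2 1.42.0 size factors, plain totals, a prior count of 5, FPKM with a pseudocount of 0.1, other filters and folds, and a loess trend for transcript length and GC. The rule names every member over 1 CPM, gives full values for the 5 most abundant, the 6 at each end among those with at least 5 CPM and any past 1.5-fold, and takes at most 3 genes from each related list. Tomm70a, Timm22, Mpc1, Got2, Cpt1b, Sfxn5 and Amt are outside it and were chosen after their values were seen. The members, substrate classes and lists were chosen with earlier results of these data known. A few genes meeting the naming rule are left unreported but enter all counts, sums and medians.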

Additional observations from a re-analysis of the deposited data

How the results depend on the processing

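DESeq2 size factors, plain totals and a prior count of 5 left all 38 measured carriers on their side of parity. By FPKM 36 of 38 stayed, with Slc25a40 at −0.0043 and Slc25a45 at 0.0077 on the log2 scale crossing it. With the length and GC trend removed 33 stayed, and Slc25a4, Slc25a14, Slc25a25, Slc25a39 and Slc25a46 crossed; 6 carriers left their counting interval. The number of 1.5-fold calls (2 pathogenic, 1 non-pathogenic) stayed the same under these 5 settings. It followed the filter and fold, with 1 pathogenic call where the filter was 5 CPM, 4 and 2 calls with no filter, 0 and 0 at 2-fold, and 6 and 4 at the lowest fold tried. The carboxylate median went from 0.32 to 0.16 with the trend removed, and the ATP-Mg/phosphate median from −0.028 to −0.21 with a 5 CPM filter, where 1 gene fewer is counted. The family median ranged from 0.050 to 0.068. No paired analysis was possible because each condition has 1 library.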

Other observations

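Some carrier genes lie next to each other. Of the 47, 4 pairs stand within 50 kb on 1 chromosome by GENCODE M21. Slc25a43 and Slc25a5 lie 18.4 kb apart on chromosome X and are transcribed in the same direction, yet Slc25a43 had 0 and 2 counts where Slc25a5 had the highest level of the family. Slc25a41 lies 2.06 kb from Slc25a23 on chromosome 17, and Slc25a54 lies 6.46 kb from Slc25a24 on chromosome 3. In both pairs the first gene had no count in either library. Slc25a29 and Slc25a47, on chromosome 12, start 162 bases apart on opposite strands. Their log2 ratios were −0.18 and 0.85, and both genes had under 5 CPM.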
